A study of Homo sapiens with 12 samples.

Results

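Expression of 10 regulators of the BCL2 family was examined in MDA-MB-231 cells after knockdown of NONO or PKM2. The genes were chosen by symbol, and comprised 3 pro-survival members (BCL2, BCL2L1 and MCL1), 2 effectors (BAX and BAK1) and 5 BH3-only members (BCL2L11, BBC3, PMAIP1, BID and BAD). All 10 were found in both deposited tables under the same Ensembl identifier, among 60558 identifiers that the tables share, and all 10 passed the low-count filter in both experiments. BCL2 family proteins decide whether the outer mitochondrial membrane stays intact. The effectors BAX and BAK1 form pores in it, the pro-survival members bind and restrain them, and the BH3-only members either occupy the groove of the pro-survival members or activate the effectors directly. Once cytochrome c leaves through the pores, the apoptosome assembles and caspases are activated, and many tumor cells depend on MCL1 or on BCL-XL, the main product of BCL2L1, to prevent this.

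MDA-MB-231 is an established human triple-negative breast cancer (TNBC) line. Cells had been given siRNA against NONO, which encodes a paraspeckle protein, or against PKM2, a splice form of the pyruvate kinase gene PKM, and each knockdown (KD) had a negative control (NC) group of its own, labeled wild type. Each of the 4 groups held 3 libraries, 12 in all, from 1 cell line, and the labels state neither which siRNA was used nor whether the replicates came from separate cultures, so P values measure only the spread between these libraries, which may be technical. The question addressed here was how the mRNA of these regulators differed from the matching NC group after each knockdown, and whether the 2 responses differed. Libraries held 19861762 to 28455268 estimated counts. NONO fell from 227 ± 5.95 to 48.5 ± 1.50 TPM in its own knockdown, and PKM from 1804 ± 34.8 to 168 ± 3.54 TPM in its own (SD, n = 3 each), the gene count covering all splice forms of PKM. TPM is a count divided by transcript length and scaled to the library total. Markers of this line were present in all 12 libraries, with VIM at 3291 to 4466 TPM and EGFR at 50.7 to 77.9 TPM, whereas ESR1 reached at most 0.12 TPM, PGR 0.41 TPM and the leukocyte marker PTPRC 0.15 TPM. Of the other markers taken as low in this line, ERBB2, the third gene of the triple-negative definition, was at 13.7 to 35.2 TPM, EPCAM at up to 3.73 TPM, GATA3 at up to 4.37 TPM and CDH1 at up to 0.06 TPM. Among the remaining markers of other cell types, the endothelial PECAM1 lay at 0.18 to 2.31 TPM. The liver gene ALB reached 0.48 TPM, and KRT14 of basal epithelium was at 0 TPM. NC replicate 1 of the NONO experiment and PKM2 KD replicate 3 lay farthest from their replicates, and values without them are given where they alter a result. Fewer cells expressing a gene and less RNA per cell cannot be told apart in bulk RNA, and no protein was measured here.

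The regions upstream of 5 members are shown because these members either responded most or carry the motifs that set them apart within the family. RefSeq (GRCh38.p14) gave 15 windows for 9 members, each running from 250 bases before a transcription start to 50 from it, and MCL1 had no entry. Windows are written 5′ to 3′ on the strand of the gene, and capitals mark matches, on either strand, to the motifs listed after them.
PMAIP1, chr18:59899746-59900045, plus strand: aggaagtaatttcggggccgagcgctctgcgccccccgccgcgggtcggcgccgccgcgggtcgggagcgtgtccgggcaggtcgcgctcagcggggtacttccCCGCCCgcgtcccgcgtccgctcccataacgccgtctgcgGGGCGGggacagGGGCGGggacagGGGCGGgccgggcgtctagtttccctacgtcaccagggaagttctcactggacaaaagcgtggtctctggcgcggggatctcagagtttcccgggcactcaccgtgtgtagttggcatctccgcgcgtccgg
BBC3, chr19:47232618-47232917, minus strand: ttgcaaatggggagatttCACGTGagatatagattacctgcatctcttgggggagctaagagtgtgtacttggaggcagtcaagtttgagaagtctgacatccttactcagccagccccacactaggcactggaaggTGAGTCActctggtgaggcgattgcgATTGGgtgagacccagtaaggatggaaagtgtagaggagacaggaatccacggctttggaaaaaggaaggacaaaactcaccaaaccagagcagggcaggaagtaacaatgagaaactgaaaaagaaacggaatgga
BCL2L1, chr20:31723914-31724213, minus strand: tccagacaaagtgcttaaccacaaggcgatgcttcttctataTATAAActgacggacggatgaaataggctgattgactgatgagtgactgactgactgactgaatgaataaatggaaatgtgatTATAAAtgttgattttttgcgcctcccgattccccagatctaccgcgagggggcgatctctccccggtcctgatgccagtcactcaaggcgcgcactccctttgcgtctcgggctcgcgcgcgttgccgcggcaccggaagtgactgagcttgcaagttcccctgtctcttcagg
BCL2L11, chr2:111120664-111120963, plus strand: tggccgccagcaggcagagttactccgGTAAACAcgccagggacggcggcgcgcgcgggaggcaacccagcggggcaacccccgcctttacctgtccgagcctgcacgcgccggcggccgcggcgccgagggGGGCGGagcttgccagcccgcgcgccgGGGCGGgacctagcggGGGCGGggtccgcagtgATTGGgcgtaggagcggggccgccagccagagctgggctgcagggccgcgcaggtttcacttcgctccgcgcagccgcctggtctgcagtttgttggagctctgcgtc
BAX, chr19:48954625-48954924, plus strand: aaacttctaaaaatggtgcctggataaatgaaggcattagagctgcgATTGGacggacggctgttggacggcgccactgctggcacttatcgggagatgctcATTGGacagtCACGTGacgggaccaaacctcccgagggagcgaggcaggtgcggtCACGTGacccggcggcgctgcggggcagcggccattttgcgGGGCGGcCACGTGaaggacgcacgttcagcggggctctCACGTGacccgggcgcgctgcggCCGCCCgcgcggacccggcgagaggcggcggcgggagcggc

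On both strands, 9 motifs were searched, namely the GC box (GGGCGG), the CCAAT box (CCAAT), the E-box (CACGTG), the cAMP response element (TGACGTCA), the AP-1 site (TGANTCA), the C/EBP-ATF element (TGATGNAA), the forkhead element (GTAAACA), the TATA box (TATAAA) and, by name, the p53 decamer, of which a full p53 site holds 2. The PMAIP1 window held 4 GC boxes, between positions -146 and -77 counted from the start base as 0, and 9.06% of all 35116 windows held as many. Within the family, the overlapping BID windows chr22:17774420-17774719 and chr22:17774446-17774745 also held 4. BAX had 4 E-boxes, which only 0.0142% of all windows matched, at positions -138, -93, -45 and -14, whereas 7.26% held at least 1 E-box. BBC3 had 1 E-box, 1 CCAAT box (34.6% of all windows) and 1 AP-1 site (7.71% of all windows). A forkhead element at position -223 and 3 GC boxes lay in the BCL2L11 window, and forkhead elements were found in 3.42% of all windows. The printed BCL2L1 window had 2 TATA boxes, a motif present in 11.5% of all windows, both over 100 bases from the start. The other BCL2L1 window, chr20:31722819-31723118, had no TATA box and 1 GC box. A p53 decamer, and so only part of a site, was matched in BAK1 alone (6.63% of all windows), where it overlapped a GC box by 1 base, and no other pair of different motifs overlapped. GC boxes were found in 11 of the 15 member windows, belonging to 7 of the 9 members, and in 45.0% of all windows. The member windows were richer in G and C, at a median of 68.7% against 58.7%. Some windows of BAD and of BID overlap, so the member windows are not independent. Neither the cAMP response element (1.85% of all windows) nor the C/EBP-ATF element (3.62%) was matched in any member window. A match describes letters only and not a bound site.

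In NC cells, the members fell into tiers of abundance by TPM. Such an order between genes depends on the length behind each TPM. Count over TPM, scaled to bases as described below, was 766 for BAX in NC replicate 1 of the NONO experiment, against a deposited length of 1358. There it was 1216 against 2495 for BID and 2169 against 1262 for PMAIP1. The order at deposited lengths was not examined. MCL1 and BCL2L1 were the most abundant, at 215 ± 15.3 and 214 ± 4.58 TPM in the NONO controls and at 191 ± 19.1 and 185 ± 4.79 TPM in the PKM2 controls (SD, n = 3 each). Their ranges overlapped in both experiments, so neither could be placed above the other. BAX followed at 172 ± 23.5 and 182 ± 8.89 TPM, overlapping BCL2L1 in the PKM2 experiment only, and then BAD at 110 ± 11.1 and 117 ± 3.11 TPM. A middle tier comprised BID, PMAIP1 and BAK1, between 37.0 and 46.9 TPM on average, whose neighbors overlapped in the PKM2 controls and were just apart in the NONO controls. BBC3 (8.62 and 9.47 TPM) and BCL2L11 (6.33 and 6.88 TPM) overlapped each other, and BCL2 was lowest in both, at 2.19 ± 0.38 and 2.04 ± 0.06 TPM. After PKM2 knockdown this order had changed, with BCL2L1 first at 308 ± 10.4 TPM, PMAIP1 second at 169 ± 7.56 TPM, and BAX and MCL1 next with overlapping ranges. After NONO knockdown, BCL2L1 stood apart above MCL1 and PMAIP1 above BID. The estimated counts behind these levels ranged from 128 for BBC3 to 13768 for BCL2L1 in a library, and BBC3 (128 to 439), BCL2 (196 to 383) and BCL2L11 (377 to 518) had the fewest.

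**Figure D1:**
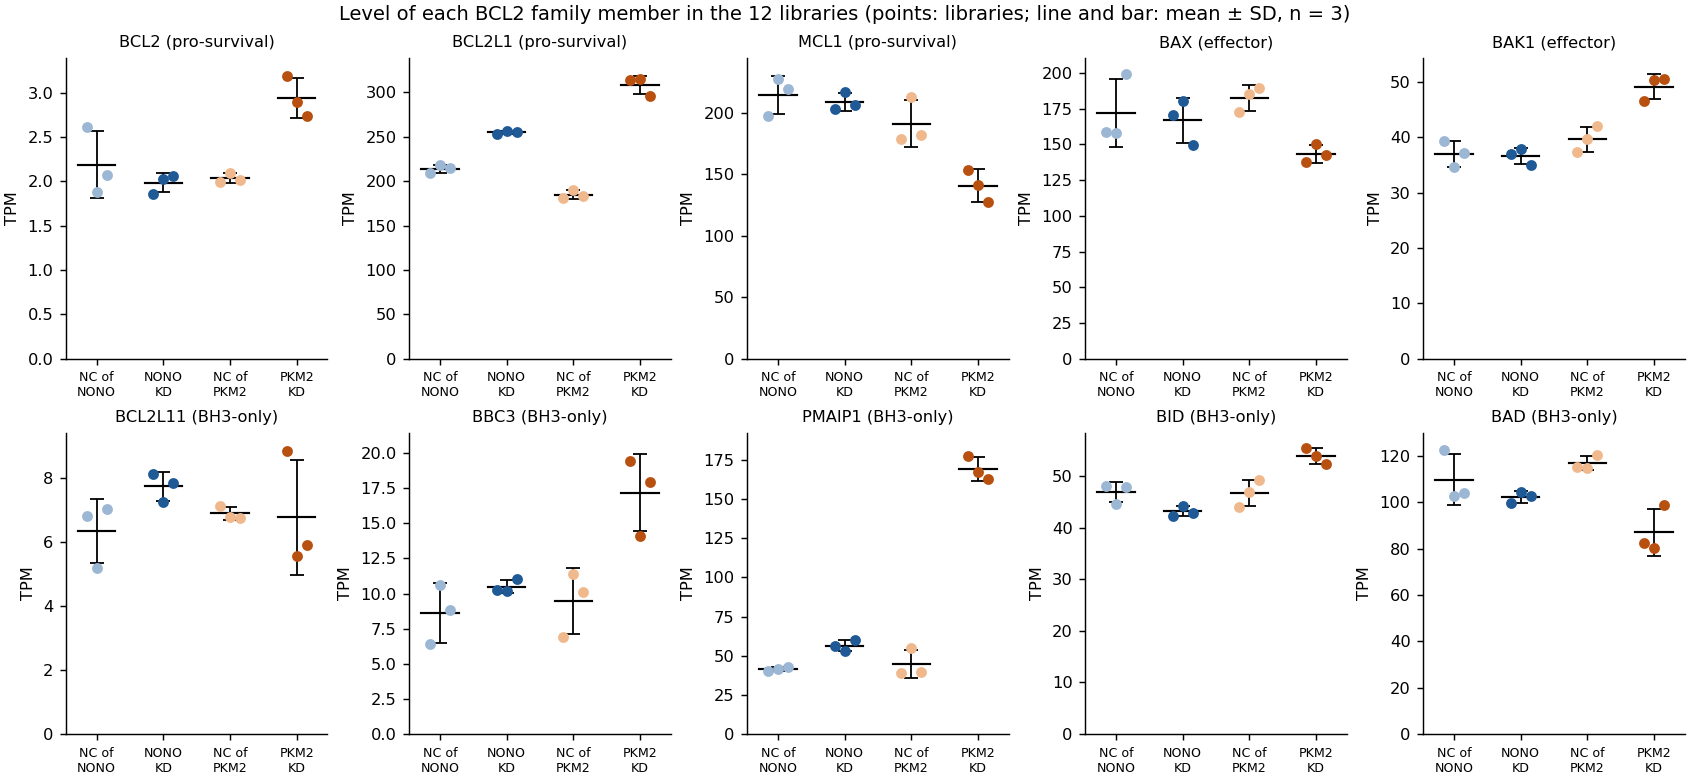
Level of each member, in TPM on axes starting at 0, in the 12 libraries, with 3 points a group and the group mean ± SD. PMAIP1 lay at 163 to 178 TPM in the PKM2 KD libraries and at or below 60.3 TPM in the other 9, and MCL1 at 128 to 154 TPM in the PKM2 KD libraries and at or above 179 TPM in the others.

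The PMAIP1 message showed the largest response of the 10 members in both experiments, BCL2L1 rose in both, and MCL1 fell only after PKM2 knockdown, a difference between the knockdowns that was itself tested below. A gene was called where edgeR's quasi-likelihood test on the counts gave a Benjamini-Hochberg adjusted P below 0.05 over all genes tested. NONO knockdown raised 4 of the 10 members (BCL2L1, PMAIP1, BCL2L11 and, on counts but not on TPM, where its sign turned, BAX), and 6 were not called. Of all 14832 genes tested, 33.4% were called, 16.2% higher and 17.2% lower, so the share of members called was near the background. On log2(TPM + 1), the share of higher genes among all called after NONO knockdown went from 48.4% to 34.4%. In that fit 2 members were called, beside 2645 of all 13786 genes tested. PKM2 knockdown was followed by 9 calls among the 10 members, with 7 raised (BCL2L11 on counts but not on TPM, where its sign turned) and 2 lowered, against 68.4% of all 15524 genes tested, 33.6% higher and 34.7% lower. The median log2 fold change of the members was 0.13 after NONO knockdown and 0.36 after PKM2 knockdown, compared with -0.01 over all genes in both. Without regard to sign, the median change of the members was smaller than that of all genes, which were not matched to the members in count. The median absolute log2 fold change was 0.13 for the members and 0.19 for all genes after NONO knockdown. After PKM2 knockdown it was 0.37 and 0.47. With DEGs taken as genes changed more than 2-fold with P below 0.05, cutoffs of the study's methods that were read here as before adjustment, PMAIP1 and BBC3 were DEGs after PKM2 knockdown, where 20.8% of all genes were. With edgeR, 0 members were DEGs after NONO knockdown, where 2.95% of all genes were. At an unadjusted P below 0.05, 4 members passed with edgeR, as did 6317 of the 14832 genes tested. DESeq2 and limma also gave 0 DEGs among the members, beside 518 over all genes with DESeq2 and 172 to 353 in the limma fits. The TPM ranges of NC and KD did not overlap for 4 members after NONO knockdown (39.1% of all genes) and for 9 after PKM2 knockdown (65.4% of all genes).

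**Figure D2:**
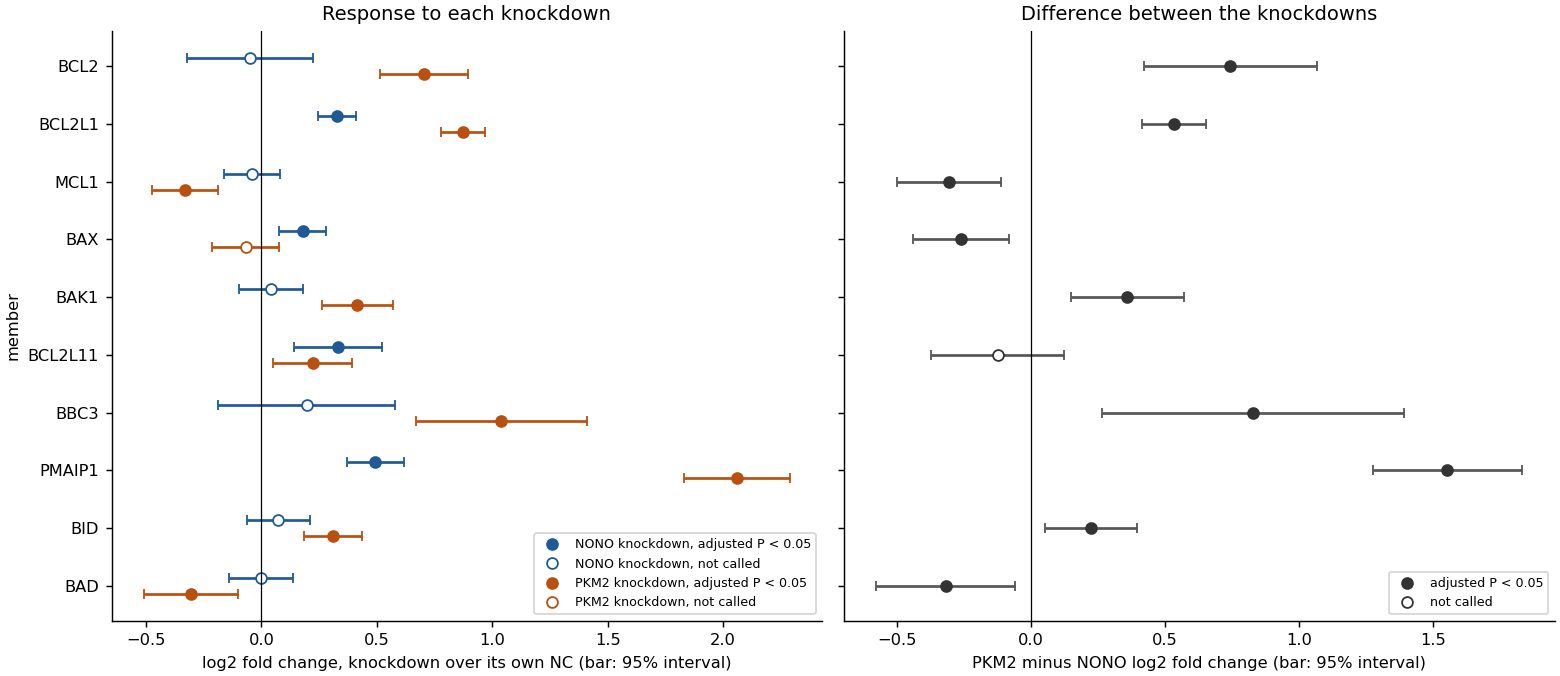
Left, log2 fold change on counts of each member against its own NC group with its 95% interval, NONO in blue and PKM2 in orange. Right, the PKM2 minus NONO log2 fold change, with filled points for an adjusted P below 0.05. PMAIP1 lay highest, at 0.49 and 2.06, and the values of BAX after NONO knockdown and of BCL2L11 after PKM2 knockdown, both called here, turn negative on TPM.

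BCL2L1 (ENSG00000171552, chr20:31664452-31723989 on GRCh38) encodes BCL-XL, which binds BAX, BAK1 and BH3-only proteins. Its NC libraries in the NONO experiment held 209, 218 and 215 TPM, and its KD libraries 253, 257 and 255 TPM. The ranges did not overlap, and the spread within each group was small beside the gap. This was a log2 fold change of 0.33 (SE 0.04, edgeR adjusted P = 7.29e-05), a 1.26-fold rise. In the PKM2 experiment, BCL2L1 went from 181, 190.0 and 184 TPM to 313, 315 and 296 TPM. Again all 3 KD libraries exceeded all NC libraries, with a log2 fold change of 0.87 (SE 0.04, edgeR adjusted P = 9.22e-09), a 1.83-fold rise. BCL2L1 was called in all 13 alternatives of each experiment, at a log2 fold change of 0.25 to 0.35 after NONO knockdown and of 0.74 to 0.90 after PKM2 knockdown. In GENCODE 29, 1424 of its 3314 exonic bases overlap ABALON on the opposite strand, and because the library's strandedness is not stated, their reads cannot be told apart.

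MCL1 (ENSG00000143384, chr1:150574551-150579738) encodes a short-lived pro-survival protein that restrains BAK1 and is bound by NOXA, the product of PMAIP1. After PKM2 knockdown, MCL1 went from 179, 213 and 182 TPM to 154, 141 and 128 TPM. Every KD library was below every NC library, and the log2 fold change was -0.33 (SE 0.06, edgeR adjusted P = 0.000695). The fall was called in all 13 alternatives, with log2 fold changes between -0.44 and -0.26. After NONO knockdown its libraries held 198, 227 and 220 TPM in NC and 203, 217 and 206 TPM in KD, and the ranges overlapped. The log2 fold change was -0.04 (95% interval -0.16 to 0.08, edgeR adjusted P = 0.617), but -0.09 and called without NC replicate 1 (edgeR adjusted P = 0.0208), and 0.02 without NC replicate 2 (edgeR adjusted P = 0.852).

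BCL2 (ENSG00000171791, chr18:63123346-63320128), the founding pro-survival gene of the family, made up at most 0.678% of the summed TPM of the 3 pro-survival members in any library. PKM2 knockdown was followed by a change from 1.99, 2.10 and 2.02 TPM to 3.19, 2.89 and 2.74 TPM. The groups did not overlap, with a log2 fold change of 0.71 (SE 0.09, edgeR adjusted P = 1.87e-05). On log2(TPM + 1), it was 0.37 (limma adjusted P = 0.0393), and the call was lost without the TPM filter (limma adjusted P = 0.112). Around NONO knockdown, BCL2 held 2.61, 1.88 and 2.07 TPM in NC and 1.86, 2.03 and 2.06 TPM in KD. Here the highest value was NC replicate 1, and the log2 fold change was -0.05 (95% interval -0.32 to 0.22, edgeR adjusted P = 0.793), or 0.09 without that library (edgeR adjusted P = 0.568).

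After PKM2 knockdown, BAK1 was called as higher on counts and BAX was not called. After NONO knockdown, the ranges of the BAX to BAK1 ratio overlapped, as given below. The effectors were not tested against each other. BAK1 (ENSG00000030110, chr6:33572547-33580293), a resident of the outer mitochondrial membrane, went from 37.4, 39.6 and 42.0 TPM to 46.5, 50.3 and 50.5 TPM after PKM2 knockdown. The log2 fold change was 0.42 (SE 0.07, edgeR adjusted P = 0.000219), and the rise was called in all 13 alternatives. In the NONO experiment, BAK1 lay at 34.6 to 39.3 TPM in NC and at 35.1 to 37.8 TPM in KD, with a log2 fold change of 0.04 (95% interval -0.10 to 0.18, edgeR adjusted P = 0.650). The sign of this value turned on log2(TPM + 1), where it was -0.01.

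BAX (ENSG00000087088, chr19:48954815-48961798) encodes the effector that moves from the cytosol to mitochondria. Its values depended on the unit. In the NONO experiment, BAX held 159, 158 and 199 TPM in NC and 170.2, 180.2 and 150 TPM in KD, so the TPM ranges overlapped. CPM are counts scaled to library size after edgeR's TMM adjustment of that size. In CPM, NC averaged 67.9 ± 2.27 and KD 76.9 ± 0.68 (SD, n = 3 each), a difference of 0.18 on the log2 scale (SE 0.05, edgeR adjusted P = 0.0124). The value was -0.04 on log2(TPM + 1), and without KD replicate 2 the call on counts was lost (log2 fold change 0.17, edgeR adjusted P = 0.0579). After PKM2 knockdown, the reverse held. BAX went from 172, 185 and 189 TPM to 138, 150.0 and 142 TPM with no overlap, a fall of 0.34 on log2(TPM + 1) that limma called (adjusted P = 0.00100), yet the log2 fold change on counts was -0.07 (95% interval -0.21 to 0.08, edgeR adjusted P = 0.384). Without KD replicate 3, it was -0.14 on counts and was called (edgeR adjusted P = 0.0115).

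PMAIP1 (ENSG00000141682, chr18:59899948-59904306), whose upstream window with 4 GC boxes is printed above, encodes NOXA, a BH3-only protein that binds MCL1 and is known as a target of p53 and of the integrated stress response. After PKM2 knockdown, PMAIP1 went from 38.8, 55.1 and 39.8 TPM in NC to 178, 167 and 163 TPM. Even the highest NC library, replicate 2, was far below all KD libraries. The log2 fold change was 2.06 (95% interval 1.83 to 2.29, edgeR adjusted P = 1.09e-08), a 4.17-fold rise that exceeded the log2 fold change of 98.9% of the genes tested. NONO knockdown was followed by a smaller rise, from 40.2, 41.4 and 43.0 TPM to 56.5, 52.7 and 60.3 TPM. The groups did not overlap here either, and the log2 fold change was 0.49 (95% interval 0.37 to 0.62, edgeR adjusted P = 6.87e-05), a 1.41-fold rise. PMAIP1 was called in all 13 alternatives of each experiment, with values of 0.43 to 0.53 for NONO and 1.92 to 2.23 for PKM2. No exon of another gene overlaps it in GENCODE 29.

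BBC3 (ENSG00000105327, chr19:47220822-47232766) encodes PUMA, which binds all pro-survival members. It went from 6.88, 11.4 and 10.1 TPM to 19.5, 14.1 and 18.0 TPM after PKM2 knockdown. All KD libraries were above all NC libraries, but the spread was wide in both groups. The log2 fold change was 1.04 (95% interval 0.67 to 1.41, edgeR adjusted P = 0.000172), a 2.05-fold rise. BBC3 was called in all 13 alternatives, whereas its place among the DEGs was lost on TPM and without NC replicate 1, KD replicate 1 or KD replicate 3, where the log2 fold change was as low as 0.81. In the NONO experiment it held 6.43, 10.6 and 8.80 TPM in NC and 10.3, 10.2 and 11.0 TPM in KD. NC replicate 1 was low and the ranges overlapped, with a log2 fold change of 0.20 (95% interval -0.19 to 0.58, edgeR adjusted P = 0.431) that lay between 0.03 and 0.43 as single libraries were left out.

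BCL2L11 (ENSG00000153094, chr2:111119378-111168447) encodes BIM, an activator of BAX and BAK1 made in several splice forms. After NONO knockdown it went from 6.81, 5.17 and 7.01 TPM to 8.12, 7.23 and 7.82 TPM. The KD libraries all lay above NC, by a narrow margin, with a log2 fold change on counts of 0.33 (SE 0.09, edgeR adjusted P = 0.0121). The call was lost on log2(TPM + 1) (log2 fold change 0.26, limma adjusted P = 0.191) and without KD replicate 1 (0.28, edgeR adjusted P = 0.0631). After PKM2 knockdown it went from 7.12, 6.77 and 6.75 TPM to 8.83, 5.56 and 5.88 TPM. KD replicate 1 lay above NC and the other KD libraries below it. On counts the log2 fold change was 0.22 (SE 0.08, edgeR adjusted P = 0.0239), on log2(TPM + 1) it was -0.05, and DESeq2 did not call it (adjusted P = 0.0675). Leaving out NC replicate 1 (0.22, edgeR adjusted P = 0.0676), NC replicate 2 (0.18, edgeR adjusted P = 0.0906) or KD replicate 1 (0.20, edgeR adjusted P = 0.0673) also ended the call. Of its 6658 exonic bases, 727 overlap MIR4435-2HG on the opposite strand.

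BID (ENSG00000015475, chr22:17734138-17774770), which caspase-8 cleaves to link death receptors to mitochondria, went from 44.1, 46.9 and 49.2 TPM to 55.4, 53.9 and 52.3 TPM after PKM2 knockdown. The ranges were apart, with a log2 fold change of 0.31 (SE 0.06, edgeR adjusted P = 0.000480), and the rise was called in all 13 alternatives, at 0.20 or more. In the NONO experiment, BID held 48.2, 44.7 and 47.9 TPM in NC and 42.4, 44.3 and 42.9 TPM in KD. The TPM ranges did not overlap, with KD lower, while the log2 fold change on counts was 0.07 (95% interval -0.06 to 0.21, edgeR adjusted P = 0.409) and that on log2(TPM + 1) was -0.12 (limma adjusted P = 0.171).

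BAD (ENSG00000002330, chr11:64269830-64284704) encodes a BH3-only protein held inactive by phosphorylation and 14-3-3 proteins. After PKM2 knockdown it went from 115.1, 114.9 and 120.4 TPM to 82.5, 80.1 and 98.7 TPM. All KD libraries were lower, KD replicate 3 least so, with a log2 fold change of -0.31 (SE 0.09, edgeR adjusted P = 0.0118). Without KD replicate 2, the value was -0.23 and the call was lost (edgeR adjusted P = 0.0625). With NONO knocked down, BAD lay at 99.7 to 104 TPM, against 103 to 123 TPM in NC, with a log2 fold change of -0.00 (95% interval -0.14 to 0.14, edgeR adjusted P = 0.988). In GENCODE 29, 404 of its 1708 exonic bases overlap GPR137 on the opposite strand.

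The opposite directions of BCL2L1 and MCL1 changed the makeup of the pro-survival class. In the PKM2 experiment, BCL2L1 made up 46.9% to 50.0% of the summed TPM of BCL2, BCL2L1 and MCL1 in NC and 66.6% to 69.5% in KD. The ratio of MCL1 to BCL2L1 TPM went from 0.991, 1.12 and 0.991 to 0.491, 0.448 and 0.430. NONO knockdown moved the ratio less, from 0.945, 1.04 and 1.02 to 0.804, 0.845 and 0.808, without overlap. The pro-survival sum itself was 378 ± 23.8 TPM in NC and 452 ± 22.9 TPM in KD of the PKM2 experiment, and 431 ± 19.5 and 466 ± 8.88 TPM in the NONO experiment (SD, n = 3 each). With 3 libraries a group, the smallest P that an exact permutation test can give is 0.1, so these sums and ratios were not tested. Like the order of levels, they depend on the length behind each TPM.

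The BH3-only sum was higher after PKM2 knockdown with PMAIP1 included, and not without it. The 5 BH3-only members summed to 225 ± 11.7 TPM in NC and to 334 ± 11.9 TPM after PKM2 knockdown, and without PMAIP1 to 180 ± 6.65 and 165 ± 10.7 TPM (SD, n = 3 each). The share of PMAIP1 in this class went from 17.6% to 23.4% in NC libraries to 48.2% to 52.1% in KD libraries. The ratio of MCL1 to PMAIP1 TPM was 3.87 to 4.61 in the NC libraries and 0.866, 0.843 and 0.782 after PKM2 knockdown. In the NONO experiment, the ratio was 4.92 to 5.49 in NC and 3.42 to 4.11 in KD, again apart. There the BH3-only sum was 213 ± 9.98 TPM in NC and 220 ± 3.99 TPM in KD. Within the effectors, the BAX to BAK1 ratio was 4.51 to 4.68 in NC and 2.82 to 2.98 after PKM2 knockdown, whereas its ranges overlapped in the NONO experiment (4.04 to 5.37 in NC and 4.27 to 4.76 in KD).

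**Figure D3:**
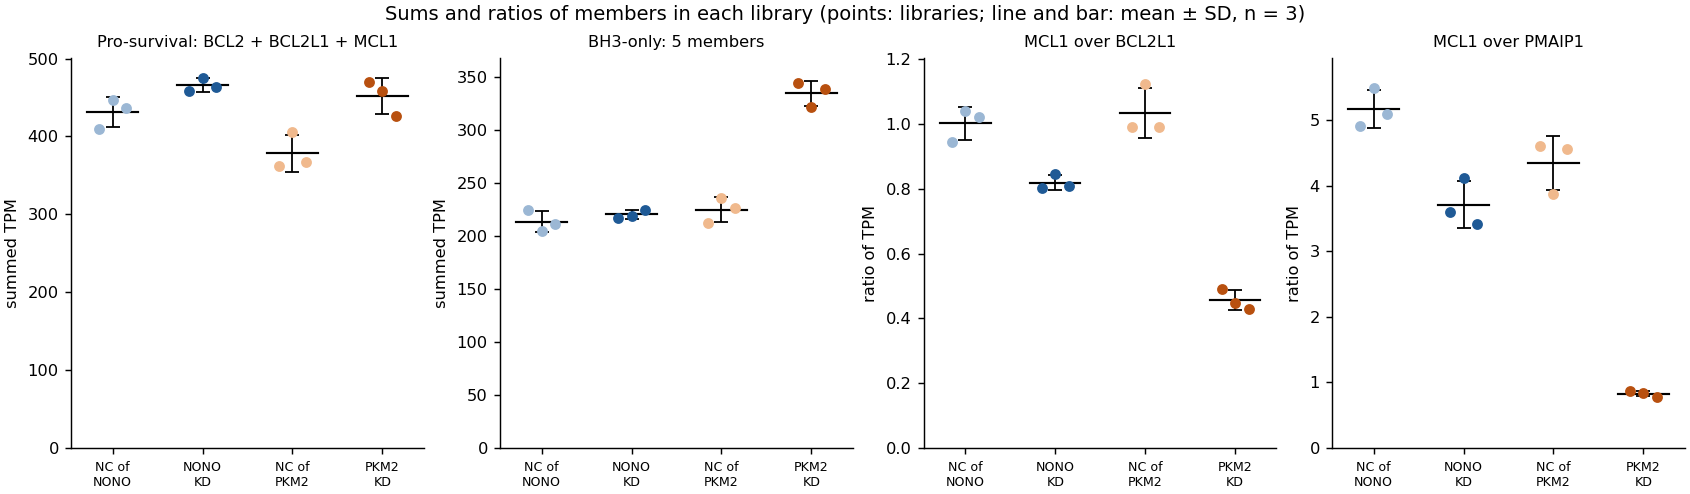
Summed TPM of the pro-survival and of the BH3-only members, and the ratios of MCL1 to BCL2L1 and to PMAIP1 TPM, in the 12 libraries on axes starting at 0, with the group mean ± SD. The MCL1 to PMAIP1 ratio was below 1 in the 3 PKM2 KD libraries and at least 3.42 in the other 9.

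Whether the responses to the knockdowns differed was tested by an interaction contrast of edgeR, with all 12 libraries in 1 model and each knockdown set against its own NC group. Of the 10 members, 9 differed, against 53.1% of all 15995 genes tested, with 25.7% higher and 27.4% lower after PKM2 knockdown. The difference, PKM2 minus NONO log2 fold change, was largest for PMAIP1, at 1.55 (95% interval 1.27 to 1.83, edgeR adjusted P = 3.46e-08). It was 0.53 for BCL2L1 (edgeR adjusted P = 4.84e-07) and -0.30 for MCL1 (edgeR adjusted P = 0.0101), and these values and that of BAK1 (0.36) were called in all 20 alternatives. For BBC3 (0.83), BCL2 (0.74) and BAX (-0.26) the difference was called on counts but not on log2(TPM + 1), where it was 0.53, 0.46 and -0.30. It was also lost without NC replicate 2 of the NONO experiment for BBC3 (0.62, edgeR adjusted P = 0.0502) and for BAX (-0.22, edgeR adjusted P = 0.0610), and without NC replicate 3 of the PKM2 experiment for BAX (-0.23, edgeR adjusted P = 0.0546). BID (0.22, edgeR adjusted P = 0.0284) lost its call without KD replicate 2 of the NONO experiment (0.21, edgeR adjusted P = 0.0715), without NC replicate 2 of the PKM2 experiment (0.21, edgeR adjusted P = 0.0630) or with no low-count filter (0.21, edgeR adjusted P = 0.160). BAD (-0.32, edgeR adjusted P = 0.0385) was called in 7 of 20 alternatives, with values between -0.52 and -0.24. For BCL2L11, which was called in both experiments, the difference was -0.12 (95% interval -0.37 to 0.13, edgeR adjusted P = 0.403). The 3 members called in both experiments, BCL2L1, BCL2L11 and PMAIP1, were raised in both on counts, and so were 9.34% of the 14525 genes tested in both.

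For BAX, BCL2L11, BID and BAK1, counts and TPM gave different signs in an experiment, and the count per TPM was examined. Dividing the estimated count by the TPM, and scaling so that the median gene equals its deposited length, gives the transcript length that each TPM value implies. For PMAIP1 it was steady, at 2156 to 2200 bases in the NONO libraries and 2057 to 2099 bases in the others. For BAX, with 13 annotated transcripts, it was 766, 745 and 634 bases in NC and 773, 740 and 888 bases in KD of the NONO experiment. In the PKM2 experiment it was 849, 801 and 798 bases in NC and 922, 838 and 968 bases in KD. BCL2L11, with 25 annotated transcripts, had 4298, 4383 and 4834 bases in the NC libraries and 4077, 5992 and 5201 bases in the KD libraries of the PKM2 experiment. For BID it was 1188 to 1240 bases in NC and 1267 to 1389 bases in KD of the NONO experiment. BAK1 differed from these, with a length that hardly varied in the NONO experiment (2552 to 2565 bases in NC and 2558 to 2565 bases in KD), although its value of 0.04 on counts was -0.01 on log2(TPM + 1). Since this length is the count over the TPM, it restates the gap between the units and is no separate measurement. It leaves out any shift common to all genes of a library, because the median gene was set to its deposited length. After NONO knockdown, the median log2 fold change over all genes was -0.01 on counts and -0.05 on log2(TPM + 1). The transcript forms themselves are not resolved in gene-level values, and their part in these differences was not tested.

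**Figure D4:**
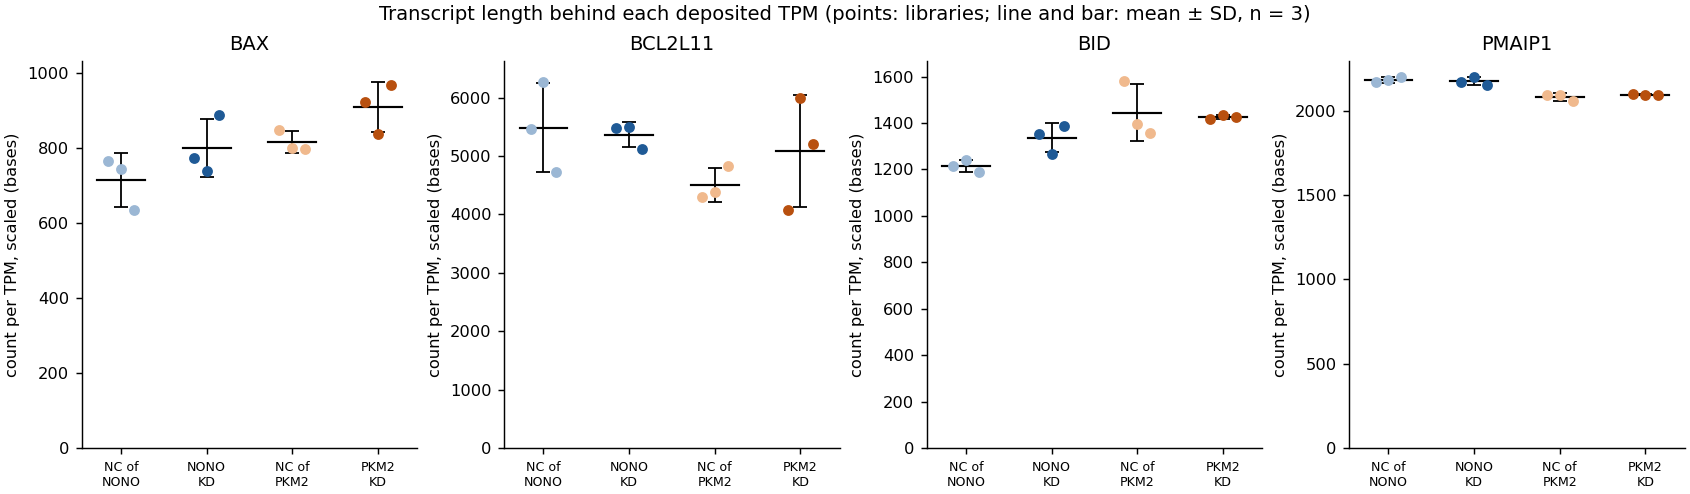
Implied length in bases, a relative scale from the estimated count over the TPM, of BAX, BCL2L11, BID and PMAIP1 in the 12 libraries, on axes starting at 0, with the group mean ± SD. It is not the length of a transcript. BAX spanned 634 to 968 bases and BCL2L11 4077 to 6262 bases, while PMAIP1 kept to 2057 to 2200 bases.

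The remaining genes of the pathway were taken from fixed lists, whose counts stand beside the 33.4% of all genes called after NONO knockdown (16.2% higher, 17.2% lower) and the 68.4% after PKM2 knockdown (33.6% higher, 34.7% lower). Among 7 further BCL2 family genes, 3 had enough counts for testing in the NONO table and 4 in the PKM2 table. NONO knockdown raised 2 of them, BOK and BCL2L2 (log2 fold changes 0.41 and 0.41, the latter not called on TPM). PKM2 knockdown raised BMF, a BH3-only gene (log2 fold change 1.90, or as low as 0.67 on TPM, from 0.61 ± 0.32 to 1.54 ± 0.26 TPM), and BCL2L2 (0.19, a call lost in 8 of 13 alternatives, such as without NC replicate 1, NC replicate 3, KD replicate 1 or KD replicate 2, where it stayed above 0), and lowered the effector relative BOK (-0.48). The median of the tested genes of this list was 0.41 and 0.49 after NONO and PKM2 knockdown.

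Among 11 genes of the apoptosome and the caspases, NONO knockdown raised 4 and lowered 3 (33.4% of all genes called), and PKM2 knockdown raised 5 and lowered 4 (68.4% of all genes called). APAF1, the scaffold of the apoptosome, was lower after both (log2 fold changes -0.55 and -0.67). CYCS, which encodes cytochrome c, was raised by both (log2 fold changes 0.43 and 0.67). DIABLO, which encodes the mitochondrial IAP antagonist SMAC, fell after NONO knockdown (-0.40) and rose after PKM2 knockdown (0.82), and DFFA, which encodes the inhibitor of the caspase-activated DNase, did the opposite (0.29 and -1.29). The list's medians were -0.01 and -0.17. Of 5 caspase inhibitor genes, NONO knockdown raised 2 (16.2% of all genes higher) and PKM2 knockdown 3 (33.6% of all genes higher), with BIRC5, which encodes survivin, at 0.54 and 0.68 (as low as 0.43 on TPM), BIRC3 at 0.25 and 0.63, and XIAP at 0.16 (not called) and 0.46 (not called on TPM). The call of BIRC3 after NONO knockdown was lost without any one of the 3 KD libraries and on TPM, where values stayed between 0.17 and 0.33. The medians of this list were 0.16 and 0.46.

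In the death receptor arm, 9 genes were tested, of which NONO knockdown raised 1 and lowered 1 (33.4% of all genes called), and PKM2 knockdown raised 4 and lowered 2 (68.4% of all genes called). FAS, a death receptor gene, went from 5.68 ± 1.34 to 0.87 ± 0.31 TPM after PKM2 knockdown (log2 fold change -2.75, or -1.83 at the smallest over the alternatives, edgeR adjusted P = 7.87e-08), whereas TNFRSF10B, which encodes the TRAIL receptor DR5, went from 83.7 ± 7.05 to 135 ± 12.6 TPM (0.85, edgeR adjusted P = 1.17e-07). After NONO knockdown, TNFRSF10B fell instead (-0.44), and FAS was at -0.25 and not called. CFLAR, whose product blocks caspase-8, rose after PKM2 knockdown (0.55, but 0.20 on log2(TPM + 1), with the call lost without the TPM filter), and RIPK1 fell (-0.57). The medians of this list were -0.04 and 0.14.

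Of 10 genes for partners and turnover of the family, NONO knockdown raised 2 and lowered 4 (33.4% of all genes called), and PKM2 knockdown raised 7 and lowered 3 (68.4% of all genes called). VDAC2, which encodes a channel that anchors BAK1 and BAX at mitochondria, fell in both (log2 fold changes -0.31 and -1.21). YWHAQ, which encodes a 14-3-3 protein, fell after NONO knockdown from 212 ± 6.16 to 92.6 ± 3.50 TPM (-1.14) and rose after PKM2 knockdown (0.30, or 0.16 at the smallest over the alternatives). FBXW7, which encodes a ubiquitin ligase subunit that targets MCL1, fell after NONO knockdown (-0.35, between -0.69 and -0.32 over the alternatives, with the call lost without the TPM filter) and rose after PKM2 knockdown (1.01, but 0.36 and not called on log2(TPM + 1)). DYNLL1, which encodes a dynein light chain that binds BIM, rose after PKM2 knockdown (0.55) and was at -0.01 after NONO knockdown. The medians were -0.01 and 0.32.

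Transcription factors known to act on family members gave 11 tested genes of 12, of which NONO knockdown raised 5 (16.2% of all genes higher), and PKM2 knockdown raised 8 and lowered 3 (68.4% of all genes called). DDIT3 and ATF4, which encode factors of the integrated stress response, and ATF3 rose after PKM2 knockdown, DDIT3 from 26.5 ± 10.6 to 101 ± 12.7 TPM (log2 fold change 2.05), ATF4 from 331 ± 32.0 to 704 ± 17.3 TPM (1.19) and ATF3 from 5.38 ± 2.68 to 14.9 ± 4.21 TPM (1.75). After NONO knockdown, they were at -0.15, 0.07 and -0.26 and not called, although ATF3 was at -0.53 and called as lower without NC replicate 1. For each of the 3, the difference between the knockdowns was called on counts (2.19, 1.11 and 2.00). E2F1 rose after NONO knockdown (0.45) and fell after PKM2 knockdown (-1.22). The medians were 0.07 and 0.50, beside -0.01 over all genes in both experiments, and no link from these factors to the members was tested.

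**Figure D5:**
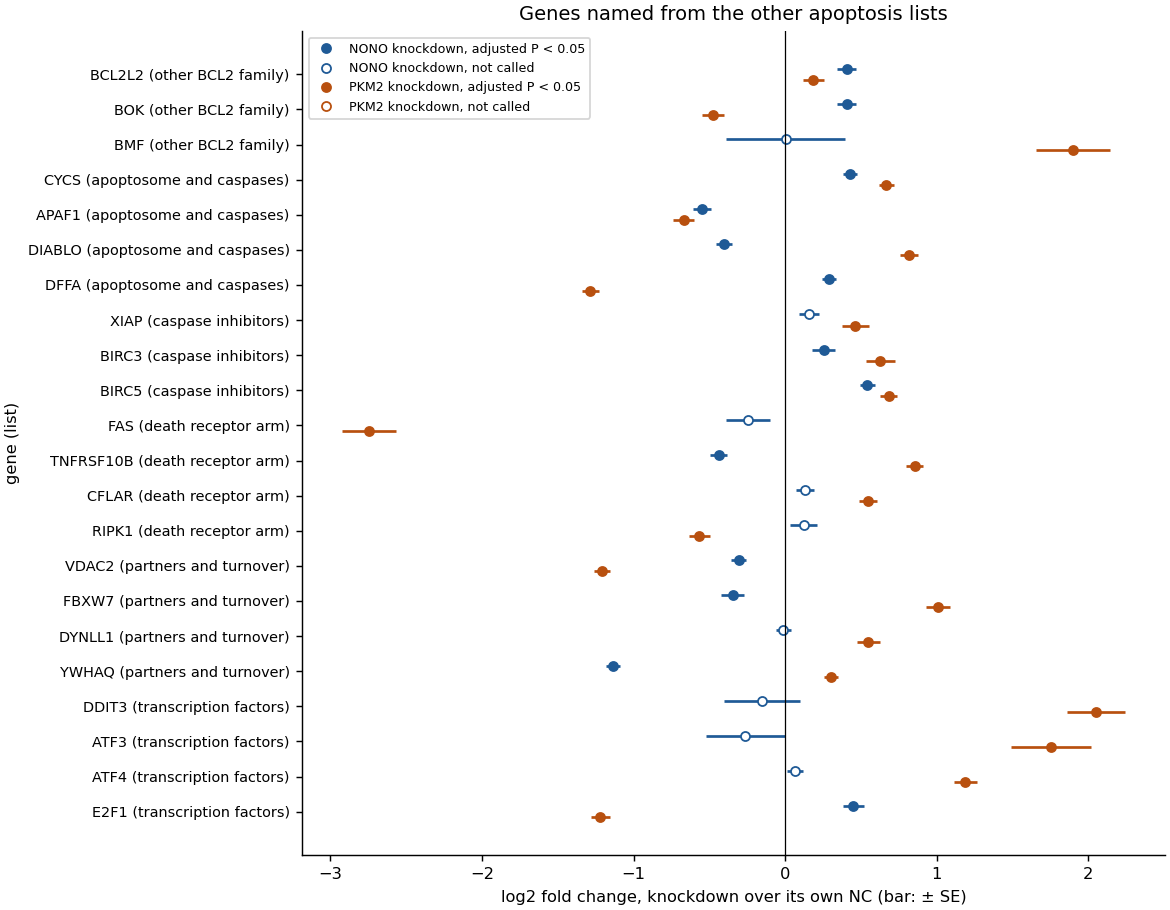
Log2 fold change on counts of the 22 genes named from the lists, each with its SE, NONO in blue and PKM2 in orange, filled where the adjusted P was below 0.05. FAS lay lowest after PKM2 knockdown, at -2.75, and DDIT3 highest, at 2.05, and YWHAQ was lowest after NONO knockdown, at -1.14.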

How the data were processed

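RNA-seq was analyzed for 12 libraries of MDA-MB-231 cells. Poly(A) RNA was sequenced in paired reads of 150 bases. For each experiment, the authors deposited estimated counts and TPM per gene and library, with a gene length. The submitters' processing notes name fastp, HISAT2, StringTie, RSEM, DESeq2, edgeR, limma and hg19, without roles or versions. Column names are identical in both tables, and each column was assigned through its table. The deposited fold changes, P values and mean TPM were not used.

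Counts were rounded and tested with edgeR 4.0.16 (R 4.3.3; TMM, filterByExpr, quasi-likelihood test, Benjamini-Hochberg adjustment over all genes tested), each experiment separately, and the difference between knockdowns in 1 fit over 12 libraries. Alternatives were DESeq2 1.42.0, RLE factors, no filter, a replicate block, limma 3.58.1 on log2(TPM + 1) at a mean TPM of at least 1 (also a pseudocount of 0.1, or no filter), each library left out, and a trend with GC content and length taken out in 20 bins. The procedures were tested on simulated data. Replicates differed by more than sampling noise (chi-square per degree of freedom 2.38 to 13.4). Locations come from GENCODE 29 on GRCh38 and not from the authors' build. From each list, at most 4 called genes were named, by largest change. The members and lists were chosen with earlier results of these data known. Of the lists, 1 gene is not reported here.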

Additional observations from a re-analysis of the deposited data

Results flagged for a closer look

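For 9 of the 10 members, the response to PKM2 knockdown differed from that to NONO knockdown by the interaction test, where 53.1% of all genes tested did. Target and experiment coincide here, so their parts in these differences cannot be told apart. The differences in log2 fold change, PKM2 minus NONO, were 1.55 for PMAIP1, 0.83 for BBC3, 0.74 for BCL2, 0.53 for BCL2L1, 0.36 for BAK1 and 0.22 for BID, and -0.32 for BAD, -0.30 for MCL1 and -0.26 for BAX. PMAIP1 and BCL2L1 were raised in both experiments, and more after PKM2 knockdown. For BCL2, BBC3, BAK1 and BID, a rise was called after PKM2 knockdown alone, and for MCL1 and BAD a fall. For BAX, the count-based value was 0.18 after NONO knockdown and -0.07 after PKM2 knockdown, while on log2(TPM + 1) both were negative, at -0.04 and -0.34.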

How the results depend on the processing

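With 3 libraries a group, modest changes of low-count members were limited by replicate spread, and gene-level values do not resolve splice forms. The members called after NONO knockdown numbered 4 on counts and 2 in each limma fit on TPM, and 3 to 5 as single libraries were left out. Calls over all genes were 4954 of 14832 on counts and 2645 of 13786 on log2(TPM + 1). They were 1699 of 27378 without the TPM filter, and 3554 to 6249 as single libraries were left out. After PKM2 knockdown, 8 to 10 members were called as single libraries were left out, and the DEGs among members were 1 in place of 2 in each limma fit on TPM and 1 to 2 as single libraries were left out. Over all genes, calls were 9891 to 10863 and DEGs 3294 to 3417 as single libraries were left out. For the difference between knockdowns, 9 members were called, 6 in the limma fits on TPM, 5 in that without a TPM filter, and 6 to 9 as single libraries were left out. Calls over all genes were 8497 of 15995 on counts and 6438 of 14091 on log2(TPM + 1). They were 5802 of 31578 without the TPM filter, and 7969 to 8526 as single libraries were left out. With both libraries that stood apart left out together, an alternative chosen after seeing the data, 8 members were called, BID being lost (0.18, edgeR adjusted P = 0.0712). Over all genes, 8738 of 16291 were called in that fit. The replicate numbers did not pair the samples (correlations of same-numbered deviations between -0.10 and 0.04). The replicate block gave 4 and 9 members called in the NONO and PKM2 experiments and 8 for the difference, the lost call being BID (0.23, edgeR adjusted P = 0.0545), and moved all called genes from 4954 to 4351 and from 10614 to 10525.

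Signs turned for the members below. After NONO knockdown, BAX was -0.0400, -0.0402 and -0.0400 in the limma fits on log2(TPM + 1), log2(TPM + 0.1) and without a TPM filter, BAK1 -0.0134, -0.0137 and -0.0134, and BID -0.117, -0.119 and -0.117, and the log2 ratio of mean TPM of BAX, -0.04, became 0.18 with CPM in place of TPM, that of BID, -0.12, became 0.07 and that of BAK1, -0.01, became 0.04. BAD after NONO knockdown was 0.00608 with DESeq2, 0.00497 with RLE factors and 0.00228 without the low-count filter. BCL2L11 after PKM2 knockdown was -0.0468 in the limma fits with a pseudocount of 1 and -0.0563 with 0.1, and its log2 ratio of mean TPM, -0.03, became 0.22 with CPM. As single libraries were left out of the NONO experiment, BCL2 ranged from -0.125 to 0.0914, MCL1 from -0.0941 to 0.0167 and BAD from -0.0293 to 0.0715. With the trend taken out, no called member changed sign, and BAD after NONO knockdown, not called, became 0.06. After PKM2 knockdown, the values without the trend were 1.83 for PMAIP1, 0.83 for BCL2, 0.94 for BCL2L1, 0.62 for BAK1 and -0.18 for BAD. The cause of these changes was not tested. Over all genes after NONO knockdown, calls fell from 4954 to 2645, 2657 and 1699 in the limma fits, and DEGs were 437 on counts, 930 without the filter, and 172 and 174 in the fits with a pseudocount of 1. DEGs after PKM2 knockdown went from 3234 to 1897 and 1916 in the latter fits. The median log2 fold change of all genes after PKM2 knockdown was -0.10 on log2(TPM + 0.1) and -0.01 on counts.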
